A study of Mus musculus with 2 samples.

Results

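Selenoproteins are proteins that hold selenocysteine, an amino acid that carries selenium in place of the sulphur of cysteine. The 9 selenoprotein genes Selenop, Gpx1, Gpx3, Gpx4, Dio1, Txnrd1, Txnrd2, Selenof and Sephs2, together with the synthesis factor gene Secisbp2, were measured in mouse liver. They were taken by gene identifier, and all 10 were found among the 43346 mouse gene identifiers quantified. The tissue was liver of adult C57BL/6J mouse, 8 weeks old. RNA over 200 nucleotides in length had been sequenced in 2 libraries, labelled biological replicates 1 and 2. No treatment or genotype other than the strain was given, so both libraries form 1 group and no conditions can be compared. The libraries had separate biosample identifiers but the same donor identifier, and the sex was not collected. Whether the libraries came from separate animals is not stated, so the spread between them may not be a spread between animals.

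Selenocysteine is encoded by UGA, which elsewhere is a stop codon. A hairpin in the 3′ untranslated region of the messenger RNA, the SECIS element, recruits SECIS-binding protein 2 (Secisbp2) and a dedicated elongation factor, which bring the selenocysteine transfer RNA to the ribosome. That amino acid is built on its own transfer RNA from serine and selenophosphate, and Sephs2 makes the selenophosphate. Liver is known as the main source of selenoprotein P in plasma, which carries selenium to other organs.

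Endogenous genes held 83816487 expected counts in replicate 1 and 71068191 in replicate 2. Levels are given as endogenous TPM, which are length-scaled transcript abundances rescaled after the spike-in controls were left out. Protein-coding genes held 12.2% of endogenous TPM in replicate 1 and 16.4% in replicate 2, so most genes had a higher TPM in replicate 2. Ratios between libraries are therefore given as log2 of replicate 2 over replicate 1 from counts scaled by TMM, a method that sets the bulk of genes level, with 0.5 CPM added. An SD of TPM includes the shift in TPM between the libraries, so its size does not show how far a gene differed beyond that shift. All 8 hepatocyte markers reached 1 TPM in both libraries, with summed levels of 9859 TPM in replicate 1 and 15760 TPM in replicate 2 and a median log2 ratio of 0.07. The libraries also differed in the levels of markers of other tissues, and where this RNA came from was not tested. The 9 pancreatic acinar markers summed to 143 TPM in replicate 1 and 47.9 TPM in replicate 2, and all 9 were over 2-fold lower in replicate 2. The 6 skeletal muscle markers summed to 4.83 TPM in replicate 1 and 0.241 TPM in replicate 2, and the 7 adrenal cortex markers to 0.873 and 15.9 TPM in the same order. The muscle markers Tnnt3, Myh4 and Actn3 had 0 counts in replicate 2, and the adrenal markers Cyp11a1 and Mc2r had 0 in replicate 1.

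The codon that defines these proteins is shown first, since the same letters are read as a stop in other genes. A window from the spliced coding sequence of each selenoprotein is printed 5′ to 3′ on the coding strand, from the GENCODE M21 transcripts, with the selenocysteine codon in capitals. Secisbp2 itself has no such codon. The 9 genes hold 18 annotated selenocysteine codons, and each was found to be an in-frame TGA.
Selenop codon 59: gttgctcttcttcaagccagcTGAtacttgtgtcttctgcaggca
Gpx1 codon 47: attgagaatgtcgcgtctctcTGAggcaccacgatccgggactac
Gpx3 codon 73: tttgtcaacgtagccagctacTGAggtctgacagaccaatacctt
Gpx4 codon 73: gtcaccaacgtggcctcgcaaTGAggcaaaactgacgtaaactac
Dio1 codon 126: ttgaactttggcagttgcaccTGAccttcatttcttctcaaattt
Selenof codon 93: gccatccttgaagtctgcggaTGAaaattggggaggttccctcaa
Sephs2 codon 63: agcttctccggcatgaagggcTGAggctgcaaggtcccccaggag
Txnrd1 codon 498: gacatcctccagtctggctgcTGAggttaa
Txnrd2 codon 526: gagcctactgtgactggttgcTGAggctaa

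The windows show 2 kinds of position. In Txnrd1 and Txnrd2 the codon is the next-to-last one, at 498 of 499 and 526 of 527, directly before the final codon and the true stop (taa) that ends the printed window. In the other genes printed, the codon lies inside the protein, at 47 of 201 codons in Gpx1, 73 of 226 in Gpx3, 73 of 197 in Gpx4, 126 of 257 in Dio1, 93 of 121 in Selenof-202 and 63 of 452 in Sephs2. Gene and codon positions are those of GENCODE M21 on mm10, and the codons stand at chr9:108339451-108339453 in Gpx1, chr11:54907256-54907258 in Gpx3 and chr10:80054737-80054739 in Gpx4, all on the plus strand. Those of Dio1 (chr4:107297700-107297702) and Sephs2 (chr7:127273731-127273733) lie on the minus strand. Those of Txnrd1 (chr10:82896037-82896039), Txnrd2 (chr16:18477772-18477774) and Selenof (chr3:144590645-144590647) lie on the plus strand.

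Selenop differs from the other 8 in holding 10 selenocysteine codons among 380. The first, codon 59 at chr15:3274848-3274850, stands alone near the start, and the other 9 lie in the last exon at codons 259, 277, 318, 330, 352, 366, 368, 375 and 377. The final 192 bases of the coding sequence, chr15:3279519-3279710 on the plus strand, are printed because they hold 7 of the 10, each in capitals.
Selenop codon 318 to the stop: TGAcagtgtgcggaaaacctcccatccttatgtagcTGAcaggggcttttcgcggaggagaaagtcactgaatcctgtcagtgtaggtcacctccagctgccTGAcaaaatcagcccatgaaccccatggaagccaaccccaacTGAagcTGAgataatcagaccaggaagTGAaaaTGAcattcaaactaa

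The place of the codon relative to exon junctions also varied. A stop codon well upstream of the last exon junction is known to mark a messenger RNA for nonsense-mediated decay, and some selenoprotein messengers are known to be open to it when selenium is short. In 7 of the 9 genes the first selenocysteine codon lay upstream of the last exon junction. The distance to that junction was 357 bases in Selenop, 342 in Gpx4, 303 in Dio1, 240 in Gpx3, 105 in Gpx1, 83 in Txnrd2 and 28 in Selenof. Each distance is that of the highest model with the codon annotated, which for Selenof is Selenof-202. Selenof-201 and Selenof-203 hold a further exon of 50 bases between the codon and that junction, so their distance is longer. In Txnrd2-203 that junction lies 1661 bases from the start of a coding sequence of 1584 bases, so the true stop lies upstream of it as well. In Txnrd1 the codon lay in the last of 14 exons, and Sephs2 has 1 exon. Of the 18 codons, 8 were followed by G, 6 by C, 3 by A and 1 by T.

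**Figure D1:**
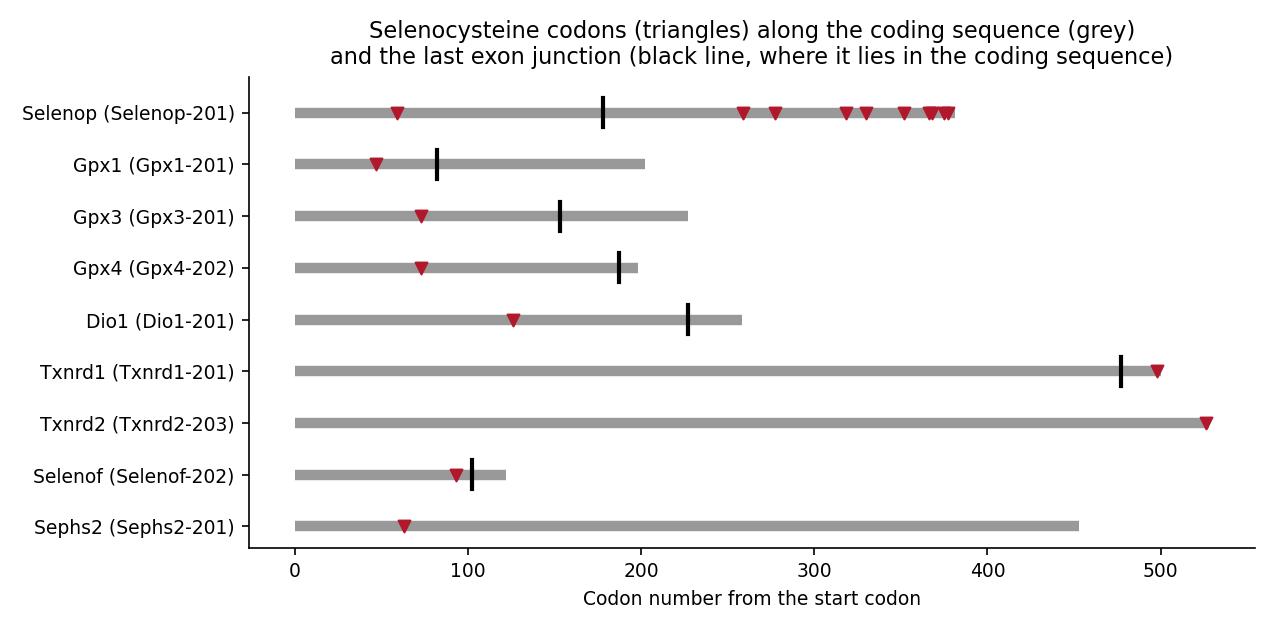
Position of each annotated selenocysteine codon (marks) along the coding sequence of the 9 selenoproteins, in codons from the start codon on the horizontal axis, with the last exon junction as a line where it falls inside the coding sequence. Selenop holds 10 codons, 9 of them after its last junction, while Txnrd1 and Txnrd2 hold theirs next to the end.

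Levels of the 10 genes spanned from 1259 TPM for Selenop to 0.341 TPM for Gpx3 on average. In both libraries the order from high to low was Selenop, Gpx1, Sephs2, Gpx4, Selenof, Dio1, Txnrd1, Txnrd2, Secisbp2 and Gpx3. The values of neighbours in this order did not overlap between libraries, although Selenof and Dio1 were only 1.01 times apart in replicate 1, against 3.49 times in replicate 2. A level of 1 TPM or more in both libraries was reached by 8 of the 10 genes, beside 31.0% of all 21474 protein-coding genes. Secisbp2 fell just short in replicate 1, at 0.984 TPM, and Gpx3 was below in both. Together the 10 genes held 1.60% ± 0.148 of protein-coding TPM (SD, n = 2). In bulk tissue, fewer cells of a type and less RNA per cell cannot be told apart.

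**Figure D2:**
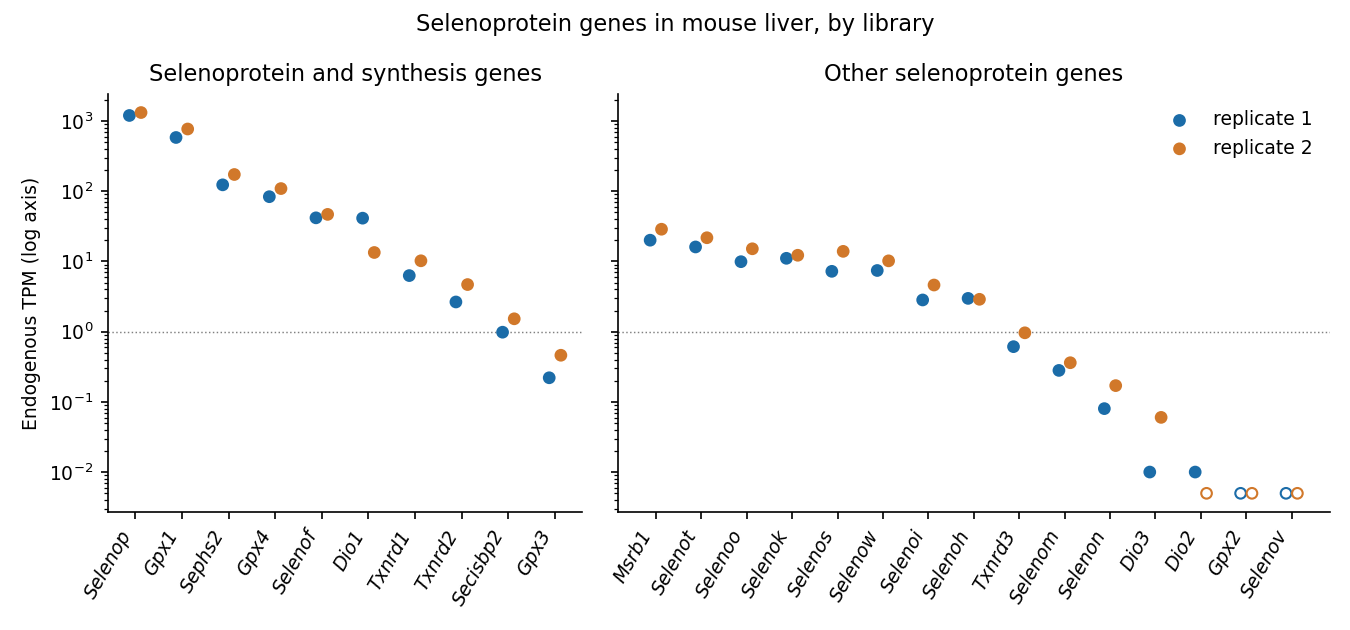
Endogenous TPM on a log axis in each library (points) for the selenoprotein and synthesis genes (left) and the other 15 selenoprotein genes (right), with a dotted line at 1 TPM. Selenop and Gpx1 lie above 500 TPM in both libraries, Gpx3 lies below 1 TPM, and open circles mark values under 0.005 TPM.

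Selenop (ENSMUSG00000064373.7, chr15:3268547-3280508, plus strand) encodes selenoprotein P, the secreted selenium carrier. It held 538244 expected counts in replicate 1 and 378349 in replicate 2, and its level was 1198 TPM in replicate 1 and 1319 TPM in replicate 2. It ranked 10 among protein-coding genes in replicate 1 and 12 in replicate 2, so it was among the most abundant messengers of both libraries. Its log2 ratio was -0.42, lower in replicate 2, while 10.6% of the genes compared had a lower ratio. The sign depended on the scaling, with a log2 ratio of 0.14 from deposited TPM. That scaling puts the median of all genes compared at 0.51, so Selenop lay below the median there too. Over all 24 selenoprotein genes, which summed to 2158 TPM in replicate 1 and 2557 TPM in replicate 2, Selenop alone held 53.6% ± 2.77 (SD, n = 2).

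Glutathione peroxidases reduce peroxides with glutathione, and the 3 members measured here stood far apart in level. Gpx1 (ENSMUSG00000063856.7, chr9:108338903-108340343, plus strand), the cytosolic form, held 113370 counts in replicate 1 and 97671 in replicate 2. Its level was 582 TPM in replicate 1 and 769 TPM in replicate 2, it ranked 25 among protein-coding genes in both, and its log2 ratio was -0.13. With Selenop it held 82.1% ± 0.585 of the TPM of the 24 selenoprotein genes, of which Gpx1 made up 28.5% ± 2.19 (SD, n = 2). Gpx4 (ENSMUSG00000075706.6, chr10:80047166-80056439, plus strand) reduces lipid hydroperoxides in membranes and so protects cells from ferroptosis. It held 16244 counts in replicate 1 and 14810 in replicate 2, with levels of 83.6 TPM and 109 TPM in the same order and a log2 ratio of -0.04.

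Gpx3 (ENSMUSG00000018339.7, chr11:54902453-54910377, plus strand) encodes the plasma form, which is known to come mainly from kidney. It was the lowest of the 10 genes, with 91 counts in replicate 1 and 92 in replicate 2. Its level was 0.221 TPM in replicate 1, with a deposited interval of 0.189 to 0.312, and 0.462 TPM in replicate 2, with a deposited interval of 0.362 to 0.623. It did not reach the mean of 1 TPM needed to enter the count of 2-fold differences. Its log2 ratio was 0.07 from counts but 1.06, past 2-fold, from deposited TPM. None of the 8 kidney tubule markers reached 1 TPM in both libraries. They summed to 0.0100 TPM in replicate 1 and 0.311 TPM in replicate 2, and Aqp2 had 0 counts in both. Of 7 adipocyte markers, Fabp4 alone reached 1 TPM in both, and the list summed to 3.83 TPM in replicate 1 and 5.95 TPM in replicate 2. The part of other cells in the Gpx3 counts was not tested.

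Thioredoxin reductases keep thioredoxin reduced with NADPH. Txnrd1 (ENSMUSG00000020250.9, chr10:82833951-82897712, plus strand), the cytosolic enzyme, held 6357 counts in replicate 1 and 6613 in replicate 2. Its level was 6.29 TPM in replicate 1 and 10.2 TPM in replicate 2, with a log2 ratio of 0.14. Txnrd2 (ENSMUSG00000075704.12, chr16:18426384-18479073, plus strand), the mitochondrial enzyme, held 1244 counts in replicate 1 and 1430 in replicate 2. Its level was 2.65 TPM in replicate 1 and 4.69 TPM in replicate 2, and its log2 ratio of 0.28 was the highest of the 9 genes compared. Txnrd1 thus lay 2.38 times above Txnrd2 in replicate 1 and 2.18 times above it in replicate 2. The value of Txnrd2 is uncertain, because whether the counting used the strand is not given in the sources used here.

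Dio1 (ENSMUSG00000034785.10, chr4:107291465-107307169, minus strand) encodes type 1 deiodinase, which removes iodine from thyroxine to give active triiodothyronine. Among the 9 genes of the set that passed the filter on low values, it was the one over 2-fold apart between the libraries. It held 19084 counts in replicate 1 and 3973 in replicate 2, and its level was 41.3 TPM in replicate 1 and 13.4 TPM in replicate 2. Scaled by TMM, it was 4.48-fold lower in replicate 2, a log2 ratio of -2.16, and it stayed over 2-fold lower with each scaling tried. Its ratio lay near the low end of all genes compared, of which 0.506% were lower still. With 1 library on each side, the difference has no replicate check.

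Of the genes listed for the action of thyroid hormone in liver, Thrsp, a lipogenic gene induced by the hormone, also lay over 2-fold apart. Thrsp had 125.7 TPM in replicate 1 and 43.5 TPM in replicate 2, with 42216 and 9424 counts and a log2 ratio of -2.07. No other gene of this list that passed the filter reached a 2-fold difference. Me1, which encodes malic enzyme, had a log2 ratio of -0.62, the receptor gene Thrb 0.07 and the transcription factor gene Klf9 0.07. The acinar and muscle markers given above were also lower in replicate 2 than in replicate 1, and the adrenal markers were higher. Of the 8 hepatocyte markers, 0 lay over 2-fold apart, beside 2.36% of the 7702 genes compared. The part of these tissues in the Dio1 value was not tested.

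Selenof (ENSMUSG00000037072.11, chr3:144570304-144597680, plus strand) encodes a selenoprotein of the endoplasmic reticulum that binds the glycoprotein-folding sensor UGGT. It held 11488 counts in replicate 1 and 8027 in replicate 2, with levels of 41.8 TPM in replicate 1 and 46.8 TPM in replicate 2. Its log2 ratio of -0.43 was close to that of Selenop, and it too turned positive from deposited TPM, at 0.16. That value was also below the median of all genes compared under the same scaling, 0.51.

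Of the 2 synthesis genes of the set, one was among the highest in level and the other among the lowest. Sephs2 (ENSMUSG00000049091.5, chr7:127271879-127274055, minus strand), both a selenoprotein and the maker of selenophosphate, held 44604 counts in replicate 1 and 40315 in replicate 2. Its level was 123 TPM in replicate 1 and 173 TPM in replicate 2, below only Selenop and Gpx1, and its log2 ratio was -0.06. The one Sephs2 model in the files is 1359 bases long, the length of its coding sequence with the stop, against 2177 bases in GENCODE M21. Its TPM is therefore a level per base of that shorter model, while the other genes' leading models have untranslated regions. A transcript model, Gm44729, overlaps 792 exonic bases of Sephs2 on the other strand and was not analysed here. Secisbp2 (ENSMUSG00000035139.10, chr13:51651697-51684044, plus strand), which binds the SECIS element, held 703 counts in replicate 1 and 743 in replicate 2. Its level was 0.984 TPM in replicate 1 and 1.53 TPM in replicate 2, with a log2 ratio of 0.16.

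Over the 9 genes that passed the filter on low values, 1 was over 2-fold apart between the libraries, beside 2.36% of the 7702 genes compared. That gene, Dio1, was lower in replicate 2, as were 1.57% of all genes compared, and 0 of the 9 were over 2-fold higher, beside 0.792%. A ratio below 0 was found for 6 of the 9, beside 55.5% of all genes compared. From deposited TPM, which puts the median of all genes compared at 0.51, 5 of these 6 were above 0 and Dio1 alone stayed below. Their median log2 ratio was -0.06, beside -0.04 for all genes, whose lower and upper quartiles were -0.23 and 0.16. Apart from Dio1, the ratios ran from -0.43 for Selenof to 0.28 for Txnrd2.

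**Figure D3:**
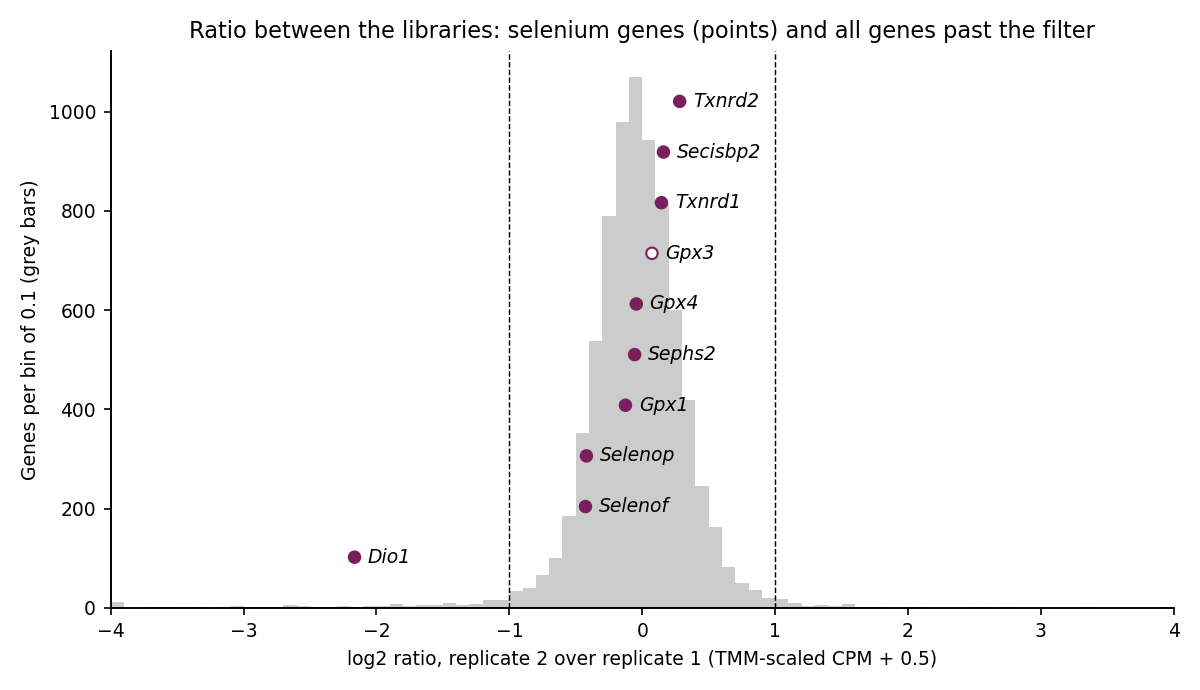
Log2 ratio of replicate 2 over replicate 1, from TMM-scaled counts, for the selenoprotein and synthesis genes (points; Gpx3, open, did not pass the filter) over the distribution of all 7702 genes compared (grey bars, genes per bin), with dashed lines at a 2-fold difference. Dio1 lies at -2.16, and the other 8 genes compared lie between -0.43 and 0.28.

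The other 15 selenoprotein genes summed to 78.7 TPM in replicate 1 and 111 TPM in replicate 2, and with them 16 of the 24 selenoprotein genes reached 1 TPM in both libraries. The 9 selenoproteins described here held 96.0% ± 0.496 of the TPM of all 24 (SD, n = 2). Of the 15, the highest was Msrb1, a methionine sulfoxide reductase, at 20.1 TPM in replicate 1 and 28.8 TPM in replicate 2. Selenot, of the endoplasmic reticulum, averaged 18.9 ± 4.01 TPM, Selenoo, of mitochondria, 12.5 ± 3.70, and Selenok and Selenos, of the endoplasmic reticulum, 11.7 ± 0.821 and 10.6 ± 4.73 (SD, n = 2 each). None of the 8 that passed the filter lay over 2-fold apart, beside 2.36% of all genes compared, and their median log2 ratio was -0.01. The other 2 deiodinase genes were near 0, with 17 and 1 counts for Dio2 and 6 and 20 for Dio3 in replicates 1 and 2. Gpx2, the peroxidase of gut epithelium, had 1 count in replicate 1 and 0 in replicate 2, and Selenov had 0 in both.

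All 11 other genes listed under selenocysteine synthesis and insertion reached 1 TPM in both libraries. Of these, 0 lay over 2-fold apart, beside 2.36% of all genes compared, and their median log2 ratio was -0.10. Sepsecs, which makes the final selenocysteyl transfer RNA, averaged 5.98 ± 0.727 TPM. Sars, which charges that transfer RNA with serine, averaged 4.29 ± 1.29 TPM, and Trnau1ap, a protein associated with it, 3.74 ± 0.740 TPM (SD, n = 2 each). The highest of this list were Rpl30, a ribosomal protein that also binds SECIS elements, at 56.9 ± 15.9 TPM, and the RNA helicase gene Eif4a3, at 7.95 ± 2.41 TPM (SD, n = 2 each). Sephs2 therefore lay above each of these 11 genes in both libraries. Secisbp2, at 1.26 ± 0.384 TPM, did not differ beyond its spread from Trit1, named after its values were seen as the lowest of them, at 1.30 ± 0.121 TPM (SD, n = 2 each), and lay above it in replicate 2.

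For uptake and recycling of selenium, 5 of 7 genes reached 1 TPM in both libraries. Cth, the cystathionine lyase of cysteine synthesis, was highest, at 123 TPM in replicate 1 and 218 TPM in replicate 2. The selenium-binding protein gene Selenbp1 averaged 82.6 ± 19.5 TPM, Mpst 11.4 ± 0.857, Selenbp2 9.02 ± 0.543 and Scly, the lyase that frees selenium from selenocysteine, 6.68 ± 1.66 (SD, n = 2 each). The 2 receptor genes for selenoprotein P in this list were low. Lrp8, known as its receptor in brain and testis, had 13 counts in replicate 1 and 12 in replicate 2, and Lrp2, its receptor in kidney, had 60 and 89.

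The transcript models behind each gene were compared next, with the share of each model in its gene as deposited. The leading model was the same in both libraries for 9 of the 10 genes, of which Txnrd1 and Sephs2 have 1 model each in the files. For all genes with more than 1 model and 1 TPM or more in both libraries, the leading model was the same for 91.3% of 5119. Of the 10 genes, 6 meet both conditions, since Gpx3 and Secisbp2 miss 1 TPM, and 5 of these 6 kept their leading model. Dio1-201 held 98.7% of its gene in replicate 1 and 98.3% in replicate 2, so the difference in Dio1 was carried by that model. Txnrd2-203 held 81.5% in replicate 1 and 82.1% in replicate 2, and Secisbp2-201 held 61.6% and 67.0% in the same order. Gpx3-201 held 88.5% in replicate 1 and 50.1% in replicate 2, on 87.1 and 65.2 counts. Models of a gene share most exons, and fragments that match several models were divided among them by estimation.

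Gpx4 was the one gene whose leading model differed, 1 of the 6 beside 8.69% of the same 5119 genes. The gene is known to make cytosolic, mitochondrial and sperm nuclear forms. Gpx4-207 held 57.4% of the gene in replicate 1 and 36.6% in replicate 2, at 48.0 TPM and 39.9 TPM. Gpx4-202 held 42.0% in replicate 1 and 62.7% in replicate 2, at 35.1 TPM and 68.4 TPM. The deposited intervals of Gpx4-202 were 34.0 to 36.1 TPM in replicate 1 and 66.0 to 70.2 TPM in replicate 2. These intervals cover the estimation within 1 library and not the spread between libraries, and TPM ran higher in replicate 2 for most genes. Gpx4-202 starts at chr10:80053488 with a first exon that ends at 80053715 and codes for 197 amino acids. Gpx4-207 starts at chr10:80054465, inside the intron that follows that exon, and codes for 157. Both hold the same selenocysteine codon, and together they held nearly all of Gpx4. Gpx4-201, with a first exon of its own and 253 codons, held 0.11% in replicate 1 and 0.49% in replicate 2.

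Whether a model annotates the selenocysteine codon differed most in Gpx1. These classes of models were set up after the transcript values had been seen. Gpx1-201, at 206 TPM in replicate 1 and 253 TPM in replicate 2, is the one model of this gene annotated with the codon, and it held 35.3% of the gene in replicate 1 and 32.9% in replicate 2. Gpx1-204 held 44.0% in replicate 1 and 36.3% in replicate 2, and Gpx1-202 held 20.5% and 30.7%. Both are annotated to start translation at chr9:108339481, 30 bases after the first base of the selenocysteine codon, whereas Gpx1-201 starts at 108339313. The codon itself is present in the exons of every Gpx1 model, so the models do not differ in whether the RNA holds the codon. Gpx1-204 differs by the removal of an intron of 104 bases, chr9:108339317-108339420, that begins just after the Gpx1-201 start codon. As 104 is not a multiple of 3, that start codon is out of frame with the selenocysteine codon in Gpx1-204. Gpx1-202 keeps that start codon and all bases from it to the selenocysteine codon. In Gpx1-202 the last exon begins 3 bases later than in Gpx1-201. Measured in expected counts, with no scaling for length, Gpx1-201 held 49.2% in replicate 1 and 45.4% in replicate 2.

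By TPM, Selenop and Selenof held large shares in models without a coding sequence. Selenop-201, with all 10 selenocysteine codons, held 74.6% of the gene in replicate 1 and 74.0% in replicate 2. The retained-intron model Selenop-204 held 24.2% in replicate 1 and 25.0% in replicate 2 by TPM, but 5.18% and 5.53% of the expected counts, at a length of 516 bases against 2013 for Selenop-201. Selenof-202 held 49.8% in replicate 1 and 53.5% in replicate 2, Selenof-203, which has no coding sequence, 38.0% and 40.4%, and Selenof-201 12.0% and 5.81%. Selenof-202 lacks an exon of 50 bases that Selenof-201 holds, chr3:144594901-144594950, downstream of the selenocysteine codon, and codes for 121 amino acids against 162.

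**Figure D4:**
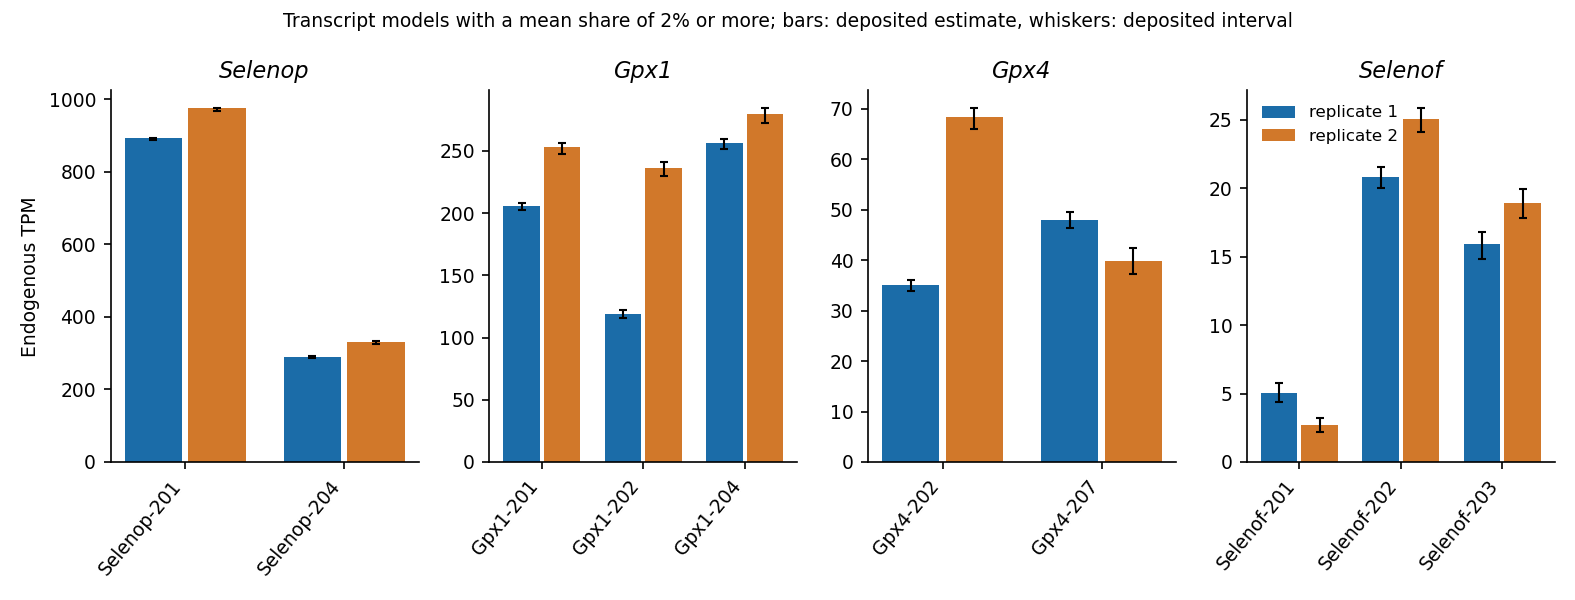
Endogenous TPM of the transcript models of Selenop, Gpx1, Gpx4 and Selenof that held a mean of 2% or more of their gene, in each library (bars), with the deposited interval (whiskers). In Gpx4 the taller bar is Gpx4-207 in replicate 1, at 48.0 TPM, and Gpx4-202 in replicate 2, at 68.4 TPM.

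Summed over the 10 genes, protein-coding models held 85.4% ± 0.323 of TPM (SD, n = 2). Models annotated with the selenocysteine codon held 65.8% ± 1.80 of the TPM of the 9 selenoproteins (SD, n = 2), at 67.1% in replicate 1 and 64.6% in replicate 2. This share was 100% in Txnrd1, Sephs2 and Gpx3, 99.7% ± 0.145 in Gpx4 and 98.5% ± 0.220 in Dio1. It was 81.9% ± 0.187 in Txnrd2, 75.4% ± 0.594 in Selenop, 60.6% ± 1.76 in Selenof and 34.1% ± 1.71 in Gpx1 (SD, n = 2 each). These shares depend on the measure, since short models weigh more in TPM than in counts. By expected counts, the share was 94.8% in replicate 1 and 94.5% in replicate 2 in Selenop, and 92.5% and 92.3% in Txnrd2. In the same order it was 73.1% and 70.3% in Selenof and 49.2% and 45.4% in Gpx1.

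**Figure D5:**
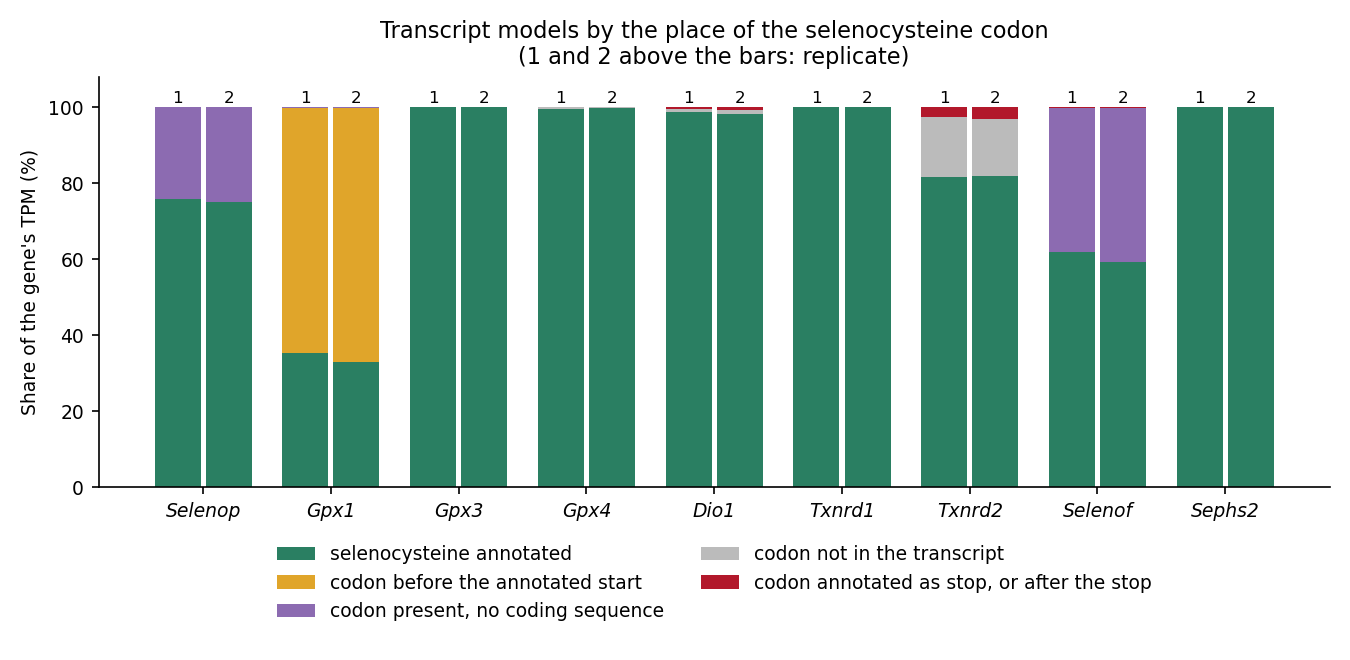
Share of each selenoprotein gene's TPM, in percent, held by transcript models grouped by the place of the selenocysteine codon, in each library. The annotated class fills Txnrd1, Sephs2 and Gpx3, and it is lowest in Gpx1, at 35.3% in replicate 1 and 32.9% in replicate 2.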

How the data were processed

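Total RNA of mouse liver was measured in 2 libraries of 1 group. The authors quantified each library against the M4 release of GENCODE on mm10, per the deposited notes. Which aligner and which quantifier they ran is not given in the sources used here, and the columns carry RSEM's names. Deposited expected counts are estimated fragments per gene or transcript and are not normalized, per the file headers. Deposited TPM and FPKM values are scaled for length and depth, and FPKM served only as an alternative threshold. The deposited percent column gives each transcript's share in its gene. The deposited signal columns bound the interval of each TPM estimate. The deposited score column, the posterior SD of each count, was 0 for all 10 genes.

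Of 43346 mouse identifiers, 42462 matched GENCODE M21, which supplied symbols, coordinates and sequences, and 884 found no match. Model lengths in the files and in M21 differ for Sephs2-201, Txnrd1-201, some minor Selenop and Txnrd2 models and, among the other selenoproteins, models of Selenok, Selenoi, Selenos, Dio2 and Selenov. No counts fell on the 26248 transfer RNA rows, and the 97 spike-in or phiX rows (1.20% and 1.06% of counts in replicates 1 and 2) were left out. Counts were rounded for TMM in edgeR 4.0.16 (factors 0.950 and 1.05), with DESeq2 1.42.0 as an alternative, in R 4.3.3. The 0.5 CPM (counts scaled to the library total) added in each ratio equals 39.8 counts in replicate 1 and 37.4 in replicate 2, so the ratios of low genes are understated. Genes compared had a mean of 1 TPM and 10 counts or more. The libraries were not copies, at a chi-square per degree of freedom of 149 over 20448 genes. The ratio step was tested on counts simulated with sampling spread alone, which is less than the spread between these libraries. That test therefore gives no rate of false calls for these data. Python 3.11.15 did the rest.

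The genes, lists and tests were chosen with earlier results of these data known. Each gene of the set was named. Of each other list, the 5 highest and any gene over 2-fold apart could be named, with genes under 1 TPM named as low. Some values that the rule covers are not reported here.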

Additional observations from a re-analysis of the deposited data

How the results depend on the processing

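With 2 libraries of 1 group, no ratio has an error and no p-value was computed. No paired analysis was possible because the study has 1 group. The count of genes at 1 TPM or more in both libraries was 8, lay between 8 and 9 with either library left out, and was 10 at a threshold of 0.1 TPM or with TPM rescaled over protein-coding genes, 6 at 10 TPM and 9 at 1 FPKM. The set's share of protein-coding TPM ran from 1.50% to 1.71% with either library left out. It was 1.16% of protein-coding expected counts and 0.226% of all endogenous TPM. The count of genes over 2-fold apart was 1 under all 7 alternatives. The median log2 ratio was 0.092 with library totals, 0.26 with spike-in totals and 0.40 from deposited TPM. These scalings put the median of all genes compared at 0.11, 0.27 and 0.51, so the sign of the set's median follows the scaling. Selenop and Selenof were below 0 except from deposited TPM, whereas Gpx1, Gpx4 and Sephs2 were below 0 only with TMM, DESeq2 factors, a smaller pseudocount or posterior mean counts. The leading models agreed for 9 genes under each alternative. From posterior mean TPM, the mean share of Txnrd2-203 was 75.2% against 81.8%, and that of Dio1-201 was 97.7% against 98.5%. Both moved by more than their SD, while the leading shares of the other 8 genes did not. Protein-coding models held 85.2% to 85.7% of the set's TPM with either library left out, and 95.8% of its expected counts. Of 60 ratios of single genes under alternatives, 30 moved by less than 0.1 on the log2 scale and 30 by more.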

Other observations

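Genes that work beside the selenoproteins were measured in the same libraries. All 14 thioredoxin and glutathione genes listed reached 1 TPM in both, and 0 lay over 2-fold apart, beside 2.36% of all genes compared. Their median log2 ratio was 0.10. The highest were the peroxiredoxins, which reduce peroxides without selenium. Prdx1 averaged 116 ± 21.1 TPM, Prdx5 61.9 ± 3.89, Prdx6 56.2 ± 8.55, Prdx4 36.8 ± 11.2 and Prdx3 25.2 ± 4.91 (SD, n = 2 each). Prdx1 thus lay between Sephs2 and Gpx4 in mean level. These SDs include the shift in TPM between the libraries. Prdx5 had the smallest of them but a log2 ratio of -0.62, against -0.20 for Prdx1, which had the largest.

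Of 7 relatives that use cysteine in place of selenocysteine, the methionine sulfoxide reductase genes Msra, at 12.9 ± 2.76 TPM, Msrb2, at 2.44 ± 0.548, and Msrb3, at 1.28 ± 0.334 (SD, n = 2 each), reached 1 TPM in both libraries. The peroxidase genes Gpx6, Gpx7 and Gpx8 had 38, 121 and 78 counts in replicate 1 and 10, 121 and 66 in replicate 2, and Gpx5 had 0 in both.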
